A study of Homo sapiens with 12 samples.

Results

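Neuroactive ligand receptors and their ligands were followed in THP-1 and U-937 cells, a pair of human acute myeloid leukemia (AML) lines of monocytic character, after 24 h with honokiol or with the DMSO vehicle. Honokiol is a biphenolic compound from magnolia bark. The genes were taken from the authors' own KEGG annotation, as those listed under its neuroactive ligand-receptor interaction pathway and not also under cytokine-cytokine receptor interaction. They were selected on their level in FPKM, a fragment count scaled to the length of the gene and the size of the library, with 0.5 FPKM or more required in 3 or more of the 12 libraries. CTSG was left out. This gave 85 genes of the 36866 in the table. The pathway held 246 genes in the table, of which 8 were also cytokine genes and 152 of the remaining 238 stayed under the FPKM limit. Across the series 16283 genes passed the same limit.

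There were 4 groups of 3 libraries: THP-1 with 0.1% DMSO, THP-1 with honokiol, U-937 with 0.1% DMSO and U-937 with honokiol, each of poly(A) mRNA. The labels describe both lines as having a complex karyotype, and they give 20 and 35 µM as doses of honokiol without tying either to a line. Each line is 1 cultured line, and the study's general statement that experiments were repeated does not say that libraries of a group came from separate cultures, so the p-values measure the spread between these libraries. Both lines grow as leukemia cells and stand for no normal monocyte. All 13 markers of the monocytic lineage exceeded 1 FPKM in some library, although MPO averaged 0.08 FPKM in DMSO-treated U-937 cells against 30.1 in THP-1. The 3 T cell markers summed to at most 0.9 FPKM in any library. The estimated counts summed to 57406966 to 75065752 per library. Genes of the mitochondrial genome held 13.7% of the THP-1 DMSO replicate 1 counts and 12.6% of the U-937 DMSO replicate 1 counts. Their share was 5.61% to 7.55% elsewhere, and counts are also given without these libraries.

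Most of these genes encode G protein-coupled receptors, which pass the binding of a ligand outside the cell to heterotrimeric G proteins inside it. Others are ligand-gated channels, nuclear receptors, or the peptides that the receptors bind. In monocytes and macrophages the formyl peptide, complement, leukotriene and platelet-activating factor receptors steer migration towards sites of infection. Purine receptors sense ATP, ADP, UDP and adenosine that leave stressed cells, and prostanoid receptors read prostaglandins and thromboxane.

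The promoters of 5 receptors past unadjusted p under 0.05 and over 2-fold in THP-1, none of them past the adjusted threshold with edgeR and all chosen after their values were seen, are shown first, as the 250 bases before the start site (RefSeq, GRCh38.p14), each 5′ to 3′ on the strand of the gene. NMUR1 was chosen as well and has no entry. Matches to 4 motifs are in capitals: TTGCNNAA for C/EBP factors, TGANTCA for AP-1, GAGGAA for PU.1 and GGGCGG for the GC box, searched on both strands. The window of FPR1 lies at chr19:51751879-51752128 on the minus strand, C3AR1 at chr12:8066360-8066609 on the minus strand, PTAFR at chr1:28193857-28194106 on the minus strand, CYSLTR1 at chrX:78327612-78327861 on the minus strand and GPR35 at chr2:240605180-240605429 on the plus strand.
FPR1: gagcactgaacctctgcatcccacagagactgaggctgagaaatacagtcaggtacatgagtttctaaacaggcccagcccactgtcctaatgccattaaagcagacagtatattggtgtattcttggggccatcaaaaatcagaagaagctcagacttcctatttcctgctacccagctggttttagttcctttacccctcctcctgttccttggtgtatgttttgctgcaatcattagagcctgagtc
C3AR1: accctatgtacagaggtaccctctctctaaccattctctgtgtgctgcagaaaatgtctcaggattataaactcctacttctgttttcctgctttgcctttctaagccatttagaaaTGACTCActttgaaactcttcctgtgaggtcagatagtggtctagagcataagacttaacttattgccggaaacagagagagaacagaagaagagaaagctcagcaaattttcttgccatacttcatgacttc
PTAFR: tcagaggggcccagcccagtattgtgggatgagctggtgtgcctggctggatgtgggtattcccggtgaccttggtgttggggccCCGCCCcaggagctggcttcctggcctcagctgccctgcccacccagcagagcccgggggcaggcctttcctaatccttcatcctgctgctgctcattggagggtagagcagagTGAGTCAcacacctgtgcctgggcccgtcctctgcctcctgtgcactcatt
CYSLTR1: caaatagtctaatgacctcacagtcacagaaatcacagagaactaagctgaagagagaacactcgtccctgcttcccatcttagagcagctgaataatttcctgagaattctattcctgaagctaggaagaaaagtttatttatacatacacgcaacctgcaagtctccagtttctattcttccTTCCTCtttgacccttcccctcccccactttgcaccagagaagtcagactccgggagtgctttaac
GPR35: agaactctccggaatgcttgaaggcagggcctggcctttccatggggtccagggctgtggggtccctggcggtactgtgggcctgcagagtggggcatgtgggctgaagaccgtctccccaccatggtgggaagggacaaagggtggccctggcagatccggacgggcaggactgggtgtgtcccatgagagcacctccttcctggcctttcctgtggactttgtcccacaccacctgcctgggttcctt
The capitals in C3AR1 are an AP-1 match 133 to 127 bases before the start. In PTAFR they are a GC box on the reverse strand at 165 to 160 bases and an AP-1 match at 51 to 45 bases before the start, and in CYSLTR1 a PU.1 match on the reverse strand at 66 to 61 bases. FPR1 and GPR35 hold none of these letters in this window. The start is that of RefSeq, and the deposited gene coordinates differ for some genes. By those coordinates the whole FPR1 window lies inside the gene, as do the AP-1 match of PTAFR and the PU.1 match of CYSLTR1. Of all 27305 promoters, 9.13% hold the C/EBP letters, 6.60% the AP-1 letters, 23.4% the PU.1 letters and 42.3% the GC box. Among promoters of genes past the same FPKM limit the shares were 6.01%, 3.83%, 23.4% and 66.9%. Among the 68 of the 85 genes with an entry, 4 held C/EBP (5.88%), 7 AP-1 (10.3%), 20 PU.1 (29.4%) and 41 GC box letters (60.3%), and no test was made of these shares. For 47 of these 68 genes the 30 bases after the start were in a GENCODE 29 transcript of the gene. The matches are descriptions of sequence, and binding was not measured.

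The 85 genes covered a wide span of levels. Mean FPKM over the 12 libraries was at least 10 for 9 genes, between 1 and 10 for 51 and under 1 for 25. A count was present in every library for 62 genes, and 35 were past 0.5 FPKM in all libraries. AGT, the precursor of angiotensin, had the highest mean at 60.8 FPKM, followed by TSPO, a protein of the outer mitochondrial membrane, at 58.6 and complement C3 at 42.9. P2RY8, a receptor known from germinal centre B cells, averaged 26.2, the neuropeptide galanin (GAL) 23.9 and the platelet-activating factor receptor PTAFR 17.6. S1PR4, a lymphoid and myeloid receptor of sphingosine 1-phosphate, averaged 12.6, the leukotriene B4 receptor LTB4R 11.65, neuromedin B (NMB) 11.6 and the neurotensin receptor NTSR1 9.96 FPKM. By role, median levels ran from 0.74 FPKM for the 3 adenosine receptors and 0.75 for the 13 peptide receptors to 4.09 for the 6 complement and lipid chemoattractant receptors and 8.16 for the group of NR3C1, THRA and TSPO. These levels are what the rule selected on. Just inside the limit, by the third highest library, were PDYN at 0.54, CNR2 at 0.57, LHB at 0.58, AVPR2 at 0.61, MAS1 at 0.74 and GRIN3A at 0.76 FPKM, and among those just outside were OPRK1 at 0.48, CHRNE at 0.47 and HTR2B and INSL3 at 0.41. Chromosome 19 held 16 of the 85 genes, or 18.8%, against 7.47% of all genes past the limit.

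**Figure D1:**
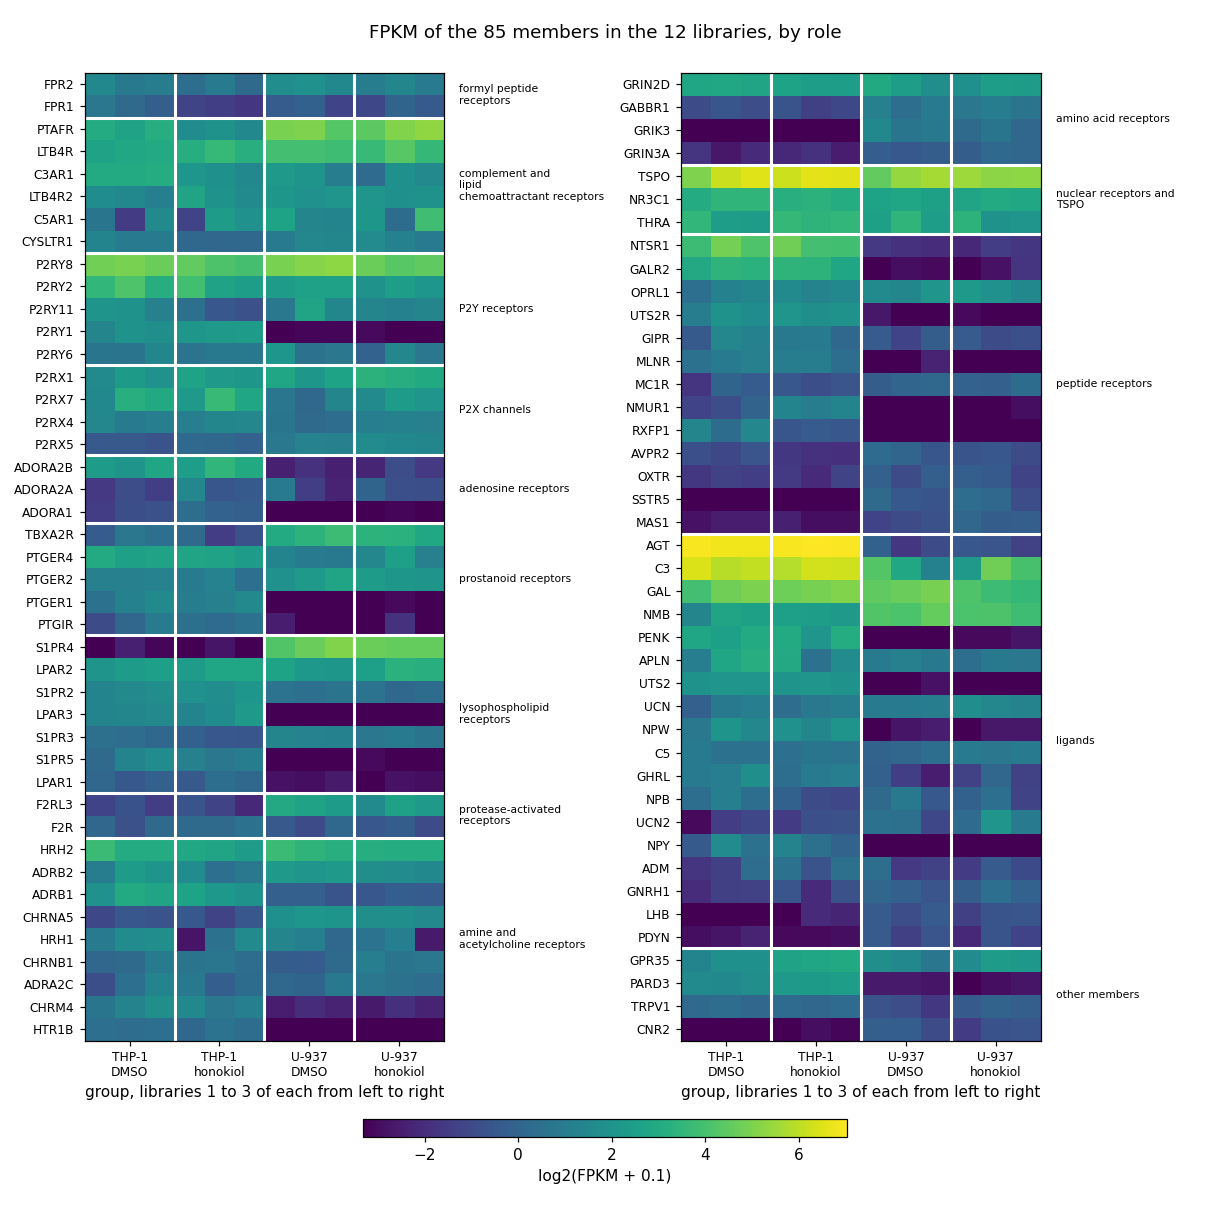
Colour gives log2(FPKM + 0.1) of each of the 85 genes (rows, by role) in each of the 12 libraries (columns, 3 per group). AGT is bright in the 6 THP-1 libraries and dark in the 6 U-937 libraries, and S1PR4 shows the opposite.

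The first comparison asks which receptors and ligands differed between honokiol and DMSO in THP-1 cells. Of the 85 genes 71 were past the FPKM limit in at least 3 of the 6 THP-1 libraries and were tested with edgeR's quasi-likelihood test on the estimated counts. A gene was called when its Benjamini-Hochberg adjusted p over all 14600 genes was under 0.05 and its absolute log2 fold change over 1. No gene of the set was called, against 0.0411% of all genes (6 genes), whereas DESeq2 called 11 (15.5%, against 1.78% of the 14019 genes to which it gave an adjusted p). With the p left unadjusted and the same fold limit, 7 of the 71 were lower with honokiol (9.86%, against 1.07% of all genes) and 4 were higher (5.63%, against 1.73%). At unadjusted p under 0.05 alone, 10 were lower and 8 higher (14.1% and 11.3%), beside 6.22% and 6.84% of all genes. The treatments did not overlap in FPKM for 11 lower and 9 higher genes (15.5% and 12.7%), beside 7.62% and 13% of all genes. FPR1, ADORA1 and ADORA2A entered the test through 1 treatment only, so they had to differ. They are in each of these unadjusted and no-overlap counts and among the DESeq2 calls too. Without them 6 were lower and 2 higher of 68 at unadjusted p with the fold limit. Of these, NMUR1 and NPB reached the limit in only 1 library of their lower treatment, so the filter favoured their direction as well. The median log2 fold change of the 71 was -0.06, and that of all genes tested was -0.0011. When DMSO replicate 1 was left out, the library with the high mitochondrial share, 10 genes passed without adjustment, 8 of them among the 11.

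Of the 8 formyl peptide, complement and lipid chemoattractant receptors tested, FPR1, PTAFR, C3AR1 and CYSLTR1 were among the 7 lower genes, and FPR2, LTB4R, LTB4R2 and C5AR1 were not. FPR1, which binds formylated bacterial peptides, measured 1.63, 1.09 and 0.77 FPKM with DMSO and 0.33, 0.28 and 0.21 with honokiol in THP-1. FPR1 was past the limit in the DMSO libraries alone, so its direction and lack of overlap were set by the filter, and its log2 fold change of -2.15 (SE 0.40) is a description. FPR2, its paralog, measured 2.76, 1.70 and 1.93 FPKM with DMSO and 1.25, 1.89 and 1.09 with honokiol. These groups overlapped, and the log2 fold change was -0.66 (SE 0.31, adjusted p = 0.411 by edgeR).

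The platelet-activating factor receptor PTAFR measured 8.15, 6.22 and 8.60 FPKM with DMSO and 3.19, 3.74 and 2.77 with honokiol. C3AR1, the receptor of the complement fragment C3a, measured 7.86, 7.90 and 8.37 with DMSO and 4.23, 3.56 and 2.76 with honokiol. CYSLTR1, a receptor of cysteinyl leukotrienes, measured 2.48, 1.78 and 1.78 with DMSO and 0.99, 0.96 and 0.99 with honokiol. In each of these 3 genes every honokiol library was below every DMSO library. The log2 fold changes were -1.30 (SE 0.20) for PTAFR and -1.25 (SE 0.19) for C3AR1, with an edgeR adjusted p of 0.0776 for both. For CYSLTR1 the log2 fold change was -1.10 (SE 0.23, edgeR adjusted p = 0.162). Leaving out 1 library at a time gave log2 fold changes of -1.45 to -1.19 for PTAFR, -1.41 to -1.09 for C3AR1 and -1.21 to -0.86 for CYSLTR1. The other members of this role went differently. LTB4R measured 6.12, 7.29 and 7.97 FPKM with DMSO and 8.57, 12.14 and 9.08 with honokiol, a log2 fold change of 0.43 (SE 0.17, edgeR adjusted p = 0.354). LTB4R2 had a log2 fold change of 0.67 (SE 0.32, edgeR adjusted p = 0.415), and 39.5% of its exon bases overlap CIDEB on the opposite strand. C5AR1, which binds C5a, varied too much to place, with 1.53, 0.26 and 2.93 FPKM with DMSO and 0.33, 5.01 and 3.64 with honokiol.

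Genes grouped by their names as purine receptors went both ways in THP-1. P2RY11, an ATP receptor, measured 4.03, 3.85 and 2.17 FPKM with DMSO and 1.31, 0.61 and 0.50 with honokiol, a log2 fold change of -2.12 (SE 0.45, edgeR adjusted p = 0.163). Of its exon bases 50.0% belong also to the readthrough gene PPAN-P2RY11 on the same strand, so the split of reads between them is uncertain. P2RY8 measured 28.54, 30.54 and 25.70 FPKM with DMSO and 22.94, 17.66 and 15.59 with honokiol (log2 fold change -0.65, SE 0.18, edgeR adjusted p = 0.232). P2RY1, an ADP receptor, measured 2.55, 3.90 and 3.47 with DMSO and 4.33, 4.66 and 4.99 with honokiol (log2 fold change 0.45, SE 0.16, edgeR adjusted p = 0.324). The treatments did not overlap in any of these 3 genes. P2RY2 and P2RY6, receptors of UTP and UDP, had log2 fold changes of -0.59 (SE 0.43) and -0.25 (SE 0.26) with overlapping libraries. Among the 4 P2X channels, which ATP opens directly, log2 fold changes ran from 0.11 for P2RX4 to 0.60 for P2RX5. P2RX5 measured 0.65, 0.65 and 0.53 FPKM with DMSO and 1.05, 0.99 and 0.86 with honokiol, without overlap (SE 0.25, edgeR adjusted p = 0.368).

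Of the 3 adenosine receptors tested, ADORA1 and ADORA2A were past the limit in the honokiol libraries alone, so their direction and lack of overlap were set by the filter and their values are descriptions. ADORA1 measured 0.27, 0.46 and 0.49 FPKM with DMSO and 1.25, 0.85 and 0.79 with honokiol (log2 fold change 1.20, SE 0.32). ADORA2A measured 0.23, 0.44 and 0.28 with DMSO and 2.68, 0.58 and 0.67 with honokiol (log2 fold change 1.99, SE 0.62). For ADORA2A, honokiol replicate 1 stood well above the other honokiol libraries, and 56.8% of its exon bases are shared with the readthrough gene SPECC1L-ADORA2A. ADORA2B measured 5.15, 3.95 and 6.86 with DMSO and 5.33, 11.02 and 7.81 with honokiol, with overlap (log2 fold change 0.54, SE 0.30, edgeR adjusted p = 0.465). The 5 prostanoid receptors gave no member at unadjusted p under 0.05, and their log2 fold changes ran from -0.99 for TBXA2R, the thromboxane receptor, to 0.24 for PTGIR, the prostacyclin receptor.

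NMUR1, the neuromedin U receptor, measured 0.32, 0.44 and 0.87 FPKM with DMSO and 2.47, 1.99 and 2.46 with honokiol. This was the largest positive fold change among the 71 genes (log2 2.05, SE 0.37, edgeR adjusted p = 0.124). The filter favoured this direction, as it did the lower one of NPB. GPR35, a receptor for which kynurenic acid is a proposed ligand, measured 2.43, 3.52 and 3.58 with DMSO and 6.11, 6.97 and 7.62 with honokiol (log2 1.07, SE 0.17, edgeR adjusted p = 0.0830). Its exon bases overlap CAPN10 for 12.9%. RXFP1, the relaxin receptor, measured 2.55, 1.15 and 2.69 with DMSO and 0.58, 0.68 and 0.60 with honokiol (log2 -1.85, SE 0.34, edgeR adjusted p = 0.134). Groups did not overlap in any of these genes. The one ligand past the unadjusted criterion was neuropeptide B (NPB), with 1.24, 2.13 and 1.22 FPKM with DMSO and 0.83, 0.41 and 0.36 with honokiol (log2 -1.56, SE 0.41, edgeR adjusted p = 0.227). PCYT2 covers 89.8% of its exon bases on the opposite strand, and whether counting used strand is not given in the sources used here.

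**Figure D2:**
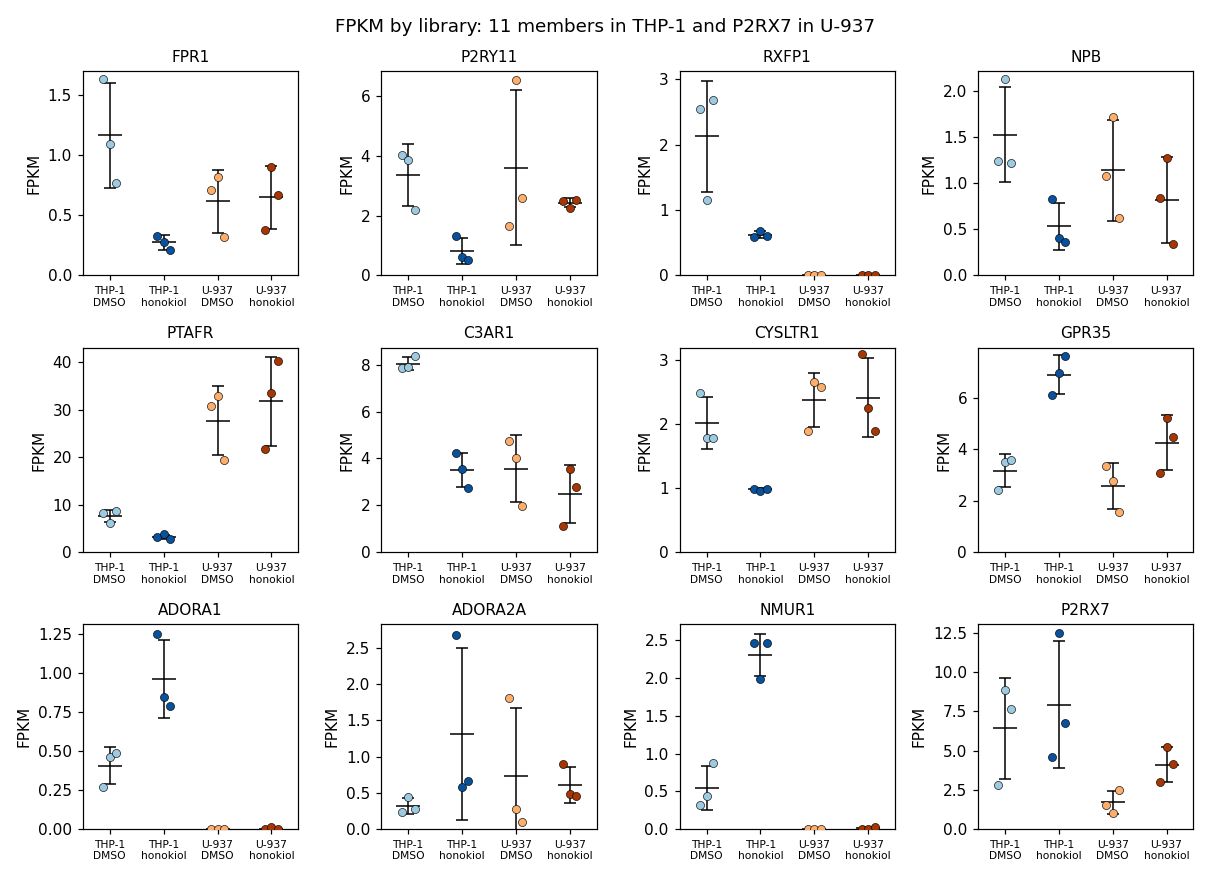
Points are FPKM of single libraries in the 4 groups for the 11 genes past unadjusted p under 0.05 and over 2-fold in THP-1 (FPR1 to NMUR1), and for P2RX7, the gene past it in U-937. Horizontal lines are means and bars are SD (n = 3), cut at 0. In THP-1 the treatments do not overlap in any of the 11 genes, which the filter fixed for FPR1, ADORA1 and ADORA2A.

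In U-937 cells 61 genes were tested among 13726. None was called, against 0.0947% of all genes, and DESeq2 called P2RX7 (1.67% of 60, against 1.73% of the 12900 genes with an adjusted p). Of the genes named by the rule given below, P2RY8, GAL, FPR2, P2RX4 and C5 passed DESeq2's adjusted threshold too. They were not over 2-fold (DESeq2 adjusted p from 0.0010 for GAL to 0.046 for FPR2). Without adjustment and with the fold limit, P2RX7 was higher (1.64% of the 61, against 1.76% of all genes) and none was lower, against 0.772%. At unadjusted p under 0.05 alone, 6 were higher and 10 lower, or 9.84% and 16.4%, beside 8.25% and 8.44% of all genes. The treatments did not overlap for 9 higher and 9 lower genes (14.8% each), beside 16.7% and 7.50%. MAS1 was among these 6 and these 9 higher genes, and TRPV1 was among the 9. Each reached the limit in only 1 DMSO library, so the filter favoured their direction. The median log2 fold change of the 61 was -0.15, against 0.02 over all genes tested. Without DMSO replicate 1, or without honokiol replicate 1, the unadjusted count was 2, and without DMSO replicate 3 or without honokiol replicate 2 it was 4.

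P2RX7, the channel that opens at high extracellular ATP, measured 1.56, 1.03 and 2.51 FPKM with DMSO and 3.02, 5.20 and 4.12 with honokiol in U-937. The log2 fold change was 1.19 (SE 0.33, 95% interval 0.42 to 1.95, edgeR adjusted p = 0.161), and it was 0.92 to 1.52 when 1 library was left out. The other P2X channels were higher on average as well. P2RX4 measured 1.52, 1.09 and 1.20 with DMSO and 2.06, 2.26 and 2.19 with honokiol (log2 0.68, SE 0.20, edgeR adjusted p = 0.170). P2RX1 measured 6.66, 4.31 and 6.31 with DMSO and 9.89, 8.60 and 7.63 with honokiol (log2 0.50, SE 0.21, edgeR adjusted p = 0.288). P2RX5 measured 1.69, 2.30 and 2.19 with DMSO and 3.11, 2.74 and 2.59 with honokiol, and 41.6% of its exon bases are shared with P2RX5-TAX1BP3. In all 4 channels every honokiol library was above every DMSO library. P2RX7 and P2RX4 lie on chromosome 12 and P2RX1 and P2RX5 on chromosome 17.

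Of the 4 P2Y receptors tested in U-937, none was called. P2RY8 measured 31.02, 35.38 and 38.51 FPKM with DMSO and 26.15, 20.19 and 22.47 with honokiol (log2 -0.69, SE 0.14, edgeR adjusted p = 0.0918). P2RY2, P2RY6 and P2RY11 had log2 fold changes of -0.43, -0.62 and -0.64, with overlapping libraries. With 1 library left out P2RY6 ran from -1.07 to 0.11 and P2RY11 from -0.98 to 0.10. FPR2 measured 3.23, 3.64 and 2.73 with DMSO and 1.93, 2.58 and 1.77 with honokiol, without overlap (log2 -0.71, SE 0.22, edgeR adjusted p = 0.189). Galanin (GAL), a peptide that acts on the galanin receptors, measured 22.65, 25.60 and 29.87 with DMSO and 18.00, 13.76 and 11.87 with honokiol (log2 -0.92, SE 0.19, edgeR adjusted p = 0.0945). GAL's receptor GALR2 was at most 0.2 FPKM in U-937. The 3 prostanoid receptors tested, PTGER2, PTGER4 and TBXA2R, had no p under 0.05, and none of the adenosine receptors passed the limit. ADORA2B was between 0.09 and 0.45 FPKM in the 6 libraries and ADORA2A between 0.1 and 1.81.

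Among the 47 genes past the limit in both lines, the treatments did not overlap in either line, in the same direction, for 3 lower genes (6.38%, against 1.26% of all 12343 such genes) and 1 higher gene (2.13%, against 3.91%). The higher gene was P2RX5. P2RY8 was lower in all honokiol libraries than in any DMSO library in both lines, as were S1PR3, a sphingosine 1-phosphate receptor, and the histamine receptor HRH2. In S1PR3 the log2 fold changes were -0.86 (SE 0.21) in THP-1 and -0.61 (SE 0.15) in U-937. For HRH2 they were -0.76 (SE 0.26) and -0.47 (SE 0.18). None of these passed the adjusted threshold with edgeR. P2RY8 in U-937 passed it with DESeq2 (DESeq2 adjusted p = 0.0027) but was not over 2-fold.

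The response was then compared between the lines with the interaction of line and treatment in one fit of all 12 libraries. None of the 85 genes was called, against 0.111% of all genes, and DESeq2 called 4 (4.76% of 84, against 1.20% of the 15307 genes with an adjusted p), of which CNR2 and PENK were near 0 in 1 line and GAL and PTAFR were expressed in both. Among the 47 genes past the limit in both lines, 6 had unadjusted p under 0.05 (12.8%, against 8.80% of the 12343 such genes). PTAFR differed by 1.39 on the log2 scale (U-937 minus THP-1, 95% interval 0.58 to 2.20, edgeR adjusted p = 0.298), and its FPKM in U-937 was 30.82, 32.83 and 19.49 with DMSO and 21.65, 33.50 and 40.15 with honokiol. For FPR1, whose direction in THP-1 was set by the filter, the difference was 2.12 (SE 0.67), with U-937 levels of 0.71, 0.82 and 0.32 with DMSO and 0.38, 0.90 and 0.67 with honokiol. CYSLTR1 differed by 1.03 (interval 0.31 to 1.75, edgeR adjusted p = 0.367). GAL differed by -1.17 (interval -1.85 to -0.48, edgeR adjusted p = 0.298), and in THP-1 it measured 15.24, 27.63 and 31.77 FPKM with DMSO and 27.13, 29.79 and 33.11 with honokiol. C5, the precursor of C5a, measured 0.88, 0.96 and 1.25 with DMSO and 1.79, 1.60 and 1.87 with honokiol in U-937, and 1.87, 1.35 and 1.37 against 1.28, 1.55 and 1.42 in THP-1, a difference of 0.85 (SE 0.30). S1PR2 differed by -0.63 (SE 0.29). The groups of PTAFR, FPR1 and CYSLTR1 overlapped in U-937.

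**Figure D3:**
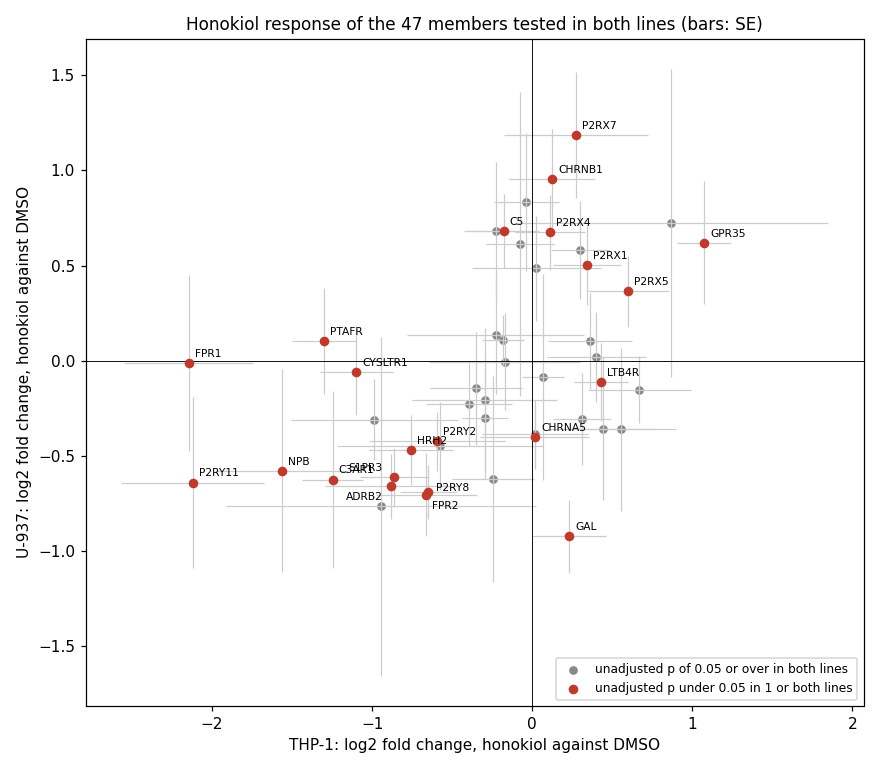
Each point is 1 of the 47 genes tested in both lines, with the log2 fold change of honokiol against DMSO in THP-1 (horizontal) and U-937 (vertical) and bars of 1 SE. FPR1, PTAFR and CYSLTR1 lie far to the left near 0 on the vertical axis, and the 4 P2X channels lie above 0 on both axes.

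The lines were compared with DMSO. Over the 6 libraries of each line, honokiol included, 47 genes were past the limit in both lines, 24 in THP-1 only and 14 in U-937 only. In one fit of all 12 libraries, 53 of the 85 genes were called between DMSO-treated U-937 and THP-1 cells, 20 higher and 33 lower in U-937 (62.4%, against 34.0% of all genes). Genes kept through 1 line alone were selected towards a difference, so the count is a description, although ADORA2A, ADM and AVPR2 were among such genes and were not called. Among the 47 genes of both lines 7 were higher in U-937 (14.9%, against 12.2%) and 11 lower (23.4%, against 11.5%). Leaving out both DMSO replicates 1, 47 of the 85 were called.

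AGT showed the largest difference among genes with counts in every library. It measured 122.93, 112.23 and 112.14 FPKM in THP-1 and 0.82, 0.21 and 0.42 in U-937 (log2 -7.94, SE 0.46, edgeR adjusted p = 1.02e-07). NTSR1 measured 13.75, 29.05 and 18.20 in THP-1 and 0.23, 0.18 and 0.15 in U-937 (log2 -6.77, SE 0.42). C3 measured 89.73, 61.21 and 68.46 in THP-1 and 19.22, 7.30 and 2.23 in U-937 (log2 -2.95, SE 0.72, edgeR adjusted p = 0.0044). The order was reversed for S1PR4, with 0.00, 0.09 and 0.01 FPKM in THP-1 and 18.79, 25.48 and 33.34 in U-937. F2RL3, the thrombin receptor PAR4, measured 0.32, 0.51 and 0.27 in THP-1 and 7.41, 6.14 and 5.14 in U-937 (log2 4.04, SE 0.49). NTSR1, S1PR4 and F2RL3 were kept through 1 line alone, so their values are descriptions.

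Several receptors and ligands were listed at 0 counts in the DMSO libraries of a line, and their differences are bounds computed against 3 fragments, taken as 12 counts, in each library. PENK, the enkephalin precursor, was at least 145-fold higher in THP-1, the relaxin receptor RXFP1 at least 75.7-fold and the lysophosphatidic acid receptor LPAR3 at least 58.0-fold. S1PR5 was at least 38.9-fold, the serotonin receptor HTR1B at least 20.1-fold and the prostaglandin E2 receptor PTGER1 at least 19.6-fold higher there. In U-937 the kainate receptor subunit GRIK3 was at least 129-fold higher, the cannabinoid receptor CNR2 at least 21.1-fold, the somatostatin receptor SSTR5 at least 6.30-fold and the luteinizing hormone subunit LHB at least 2.40-fold. NMUR1 and ADORA1, higher with honokiol in THP-1, were also at 0 counts in all DMSO libraries of U-937. All genes of this paragraph were kept through a single line, so these differences were selected for and the bounds are descriptions.

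By family, the formyl peptide receptors did not differ past the criterion between the lines, with log2 differences of -0.97 (SE 0.47) for FPR1 and 0.53 (SE 0.29) for FPR2. PTAFR was higher in U-937 (log2 1.81, SE 0.27, edgeR adjusted p = 0.000127) and C3AR1 lower (log2 -1.20, SE 0.40, edgeR adjusted p = 0.0231). Of the prostanoid receptors past the limit in both lines, TBXA2R and PTGER2 were higher in U-937 and PTGER4 lower, each past the criterion. PTGER1 and PTGIR were kept through THP-1 alone. TBXA2R measured 0.70, 1.63 and 1.28 FPKM in THP-1 and 8.0, 10.34 and 13.52 in U-937 (log2 3.09, SE 0.45, edgeR adjusted p = 0.000106). PTGER4 measured 8.03, 5.87 and 6.15 in THP-1 and 2.43, 1.82 and 1.74 in U-937. Of the purine receptors past the limit in both lines, P2RX7 and P2RY2 were lower in U-937 and P2RX5 higher, each past the criterion. P2RY1, ADORA1 and ADORA2B were kept through THP-1 alone, and P2RY1 was between 2.55 and 3.90 FPKM in DMSO-treated THP-1 cells and at most 0.01 in U-937. P2RY8 and GAL, both abundant, were not called between the lines, with log2 differences of 0.25 (95% interval -0.10 to 0.61) and 0.03 (interval -0.45 to 0.52). For P2RY8 every DMSO library of U-937 was still above every DMSO library of THP-1. Reads per gene cannot tell fewer expressing cells from less RNA per cell.

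**Figure D4:**
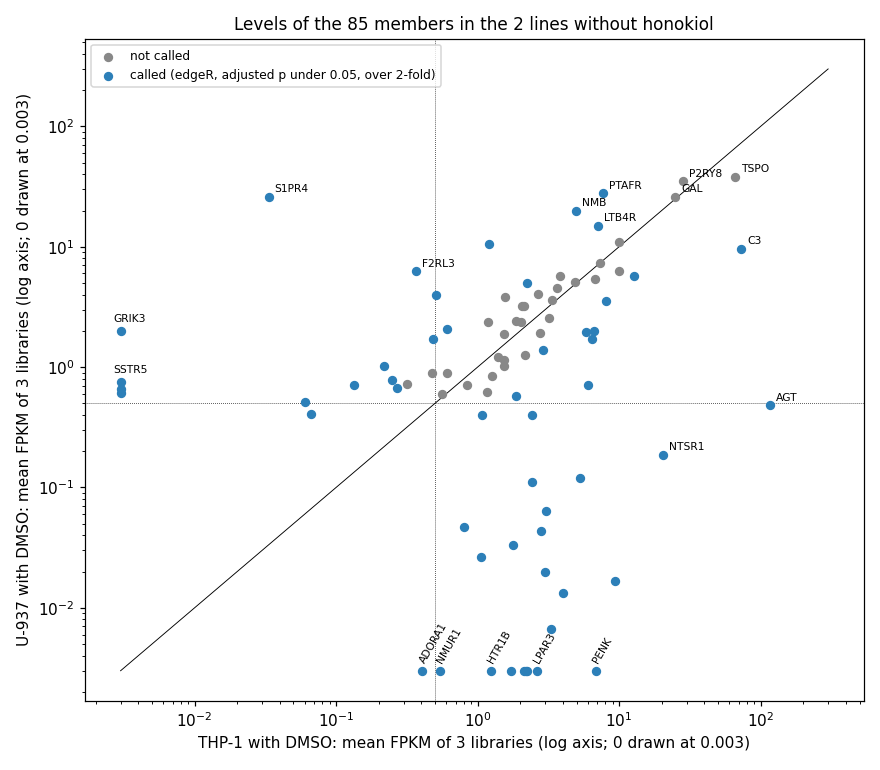
Each point is 1 of the 85 genes, with its mean FPKM of 3 DMSO libraries in THP-1 (horizontal, log axis) and U-937 (vertical, log axis). Means of 0 are drawn at 0.003, the solid line marks equal levels and dotted lines mark 0.5 FPKM. AGT, NTSR1 and PENK lie far below the line and S1PR4 and F2RL3 far above it.

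Genes that act with these receptors were taken from 4 lists. Past the unadjusted criterion, 1.73% of all genes tested were higher and 1.07% lower in THP-1, and 1.76% and 0.772% in U-937. With shares this low, the counts in these short lists are descriptions. The list of 13 G alpha subunits had 8 members past the limit in THP-1 and 10 in the other line, and none passed the unadjusted criterion in either line (median log2 fold changes -0.23 and -0.16). Nor did any of the receptor kinases, arrestins and RGS proteins, of which 14 were tested in each line (medians -0.29 and -0.11). Among the enzymes that make or break eicosanoids and nucleotides 16 were past the limit in THP-1 and 13 in the other line (medians 0.24 and 0.20), and PTGS1, the constitutive cyclooxygenase, passed in U-937. It measured 11.14, 8.23 and 11.10 FPKM with DMSO and 26.96, 21.94 and 16.36 with honokiol (log2 1.004, SE 0.21, edgeR adjusted p = 0.0989). In THP-1 PTGS1 measured 15.01, 15.92 and 15.48 with DMSO and 19.43, 22.2 and 22.01 with honokiol. These did not overlap either (log2 0.40, SE 0.12, edgeR adjusted p = 0.266). Among 5 tested ligands of chemoattractant receptors ANXA1, whose product acts on formyl peptide receptors, passed in THP-1. ANXA1 measured 4.79, 4.60 and 7.08 with DMSO and 8.36, 12.86 and 13.51 with honokiol (log2 1.02, SE 0.23, edgeR adjusted p = 0.172). In the same libraries the direction of FPR1 was set by the filter, and FPR2 overlapped between the treatments.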

How the data were processed

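Both lines were profiled by mRNA sequencing, in 12 libraries. The authors deposited, for each gene and library, FPKM values and estimated counts. The submitters' processing notes name HISAT2 2.0, StringTie 1.3.0, Bowtie 0.12.2 and the mouse build mm8, with no role or order. The coordinates in the file are those of GRCh38, since 35687 of 35762 gene IDs found in GENCODE 29 overlapped there on the same chromosome. The sources disagree on the instrument, and the series text describes a microarray. A fragment is most often worth 4 counts, so the sum of counts is not the number of fragments.

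Members and lists were chosen with earlier results of these data known. The named genes are those past unadjusted p under 0.05 with over 2-fold change and no overlap, the formyl peptide, complement, purine and prostanoid receptors, the 10 most abundant, the 6 most different between lines in each direction, those with opposite responses, and those next to the limit. S1PR3, HRH2, GALR2, LTB4R2 and any other gene outside this rule were picked with their values in view. The deposited estimated counts, which are whole numbers, were tested with edgeR 4.0.16 (quasi-likelihood, TMM) in R 4.3.3, although a plain count had been assumed. Genes needed FPKM of at least 0.5 in at least 3 libraries of the fit, which used 6 libraries for a response and 12 for the lines. p-values were Benjamini-Hochberg adjusted over all genes tested. An exact permutation test of 3 against 3 libraries cannot go below p = 0.1. Alternatives were DESeq2 1.42.0, limma 3.58.1 on log2(FPKM + 0.5) and log2(FPKM + 0.1), RLE factors, no filter, FPKM of at least 1, counts divided by 4, a replicate block, other sample sets and each library left out. The counts without both DMSO replicates 1, and the counts at unadjusted p under each alternative, were chosen after seeing the data. The test was tested on simulated data with known changes. Some genes just outside the limit are not reported here.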

Additional observations from a re-analysis of the deposited data

How the results depend on the processing

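No gene was called for honokiol in either line, or for the difference between the lines, with RLE factors, no filter, FPKM of at least 1, either limma fit, counts divided by 4, the replicate block or any library left out (leave-one-out 0 to 0), nor in one fit of all 12 libraries. DESeq2 called 11 in THP-1, 1 in U-937 and 4 for the difference, and the unadjusted p with the fold limit gave 11, 1 and 11. The cause was not tested. For the lines with DMSO, all alternatives gave 43 to 58 genes, and leaving out 1 library 48 to 53. The unadjusted count in THP-1 was 7 with limma on log2(FPKM + 0.5) and 9 to 14 with 1 library left out. In U-937 it was 2 without a filter, 5 in one fit of all 12 libraries and 1 to 4 with 1 library left out, and without DMSO replicate 2 P2RX7 was not past the fold limit. With the replicate number as a block, the counts were 0, 0, 0 and 51, and 11 and 1 without adjustment. Same-numbered libraries did not deviate together (r from -0.23 to 0.15), and so few libraries cannot settle whether the numbers pair them.

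Of 1075 values of single genes recomputed, 1012 kept their direction and side, 17 were past the adjusted threshold with DESeq2 and 46 changed sign, each for a gene not past unadjusted p under 0.05 in that line. In U-937 the log2 fold change became 0.048 and 0.12 for AGT, 0.011 and 0.011 for CYSLTR1 and 0.046 and 0.080 for FPR1 with limma on log2(FPKM + 0.5) and log2(FPKM + 0.1), and 0.057 for AGT and 0.022 for FPR1 with the replicate block. With 1 library left out the values that crossed 0 ran, in THP-1, from -0.21 to 0.16 for C3, -0.29 to 0.050 for C5, -0.25 to 0.030 for HTR1B, -0.27 to 0.25 for NMB, -0.48 to 0.19 for NTSR1, -0.038 to 0.35 for P2RX4, -0.21 to 0.56 for P2RX7, -0.40 to 0.015 for P2RY6, -0.22 to 0.21 for PENK, -0.17 to 0.29 for PTGER1, -0.12 to 0.81 for PTGIR and -0.53 to 0.061 for S1PR5, and in U-937 from -0.45 to 0.15 for AGT, -0.57 to 1.38 for C5AR1, -0.28 to 0.081 for CYSLTR1, -0.34 to 0.26 for FPR1, -0.38 to 0.019 for LTB4R, -0.98 to 0.10 for P2RY11, -1.07 to 0.11 for P2RY6, -0.13 to 0.32 for PTAFR, -0.32 to 0.036 for S1PR4, -0.14 to 0.54 for SSTR5 and -0.23 to 0.21 for TSPO. FPR1, ADORA1 and ADORA2A could be fitted in 3 of the 6 leave-one-out fits in THP-1, since they fell under the filter in the others. Low counts limit the genes near 0.5 FPKM.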
